A study of Homo sapiens with 2 samples.

Results

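The genes described here code for the proteins of the cytosolic ribosome, measured in HSC-3 cells on plastic and on Myogel. HSC-3 is an established line from an aggressive human squamous cell carcinoma of the tongue. The members were the genes whose symbol is RPL or RPS and a number, with at most a letter A, X or L and a digit after it, and RPLP0, RPLP1 and RPLP2, wherever a probe set of the array listed that symbol alone. This gave 120 probe sets for 59 genes, of 19775 genes on the array with such a probe set, and RPLP0 was not among them. A further 15 genes of the family, among them RPL4, RPL5, RPL10, RPS2 and RPS13, were listed only together with other symbols and are not named below with values. In 56 of the 65 probe sets of that kind the other symbols included a small nucleolar RNA, a class of RNA that is often encoded in introns of ribosomal protein genes.

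Both cultures carried a red fluorescent protein, introduced with lentiviral particles that hold a non-coding control sequence, and were selected with puromycin. They grew in the same medium with serum, ascorbic acid and hydrocortisone, and 90000 cells were seeded per well into uncoated plates or plates coated with Myogel, a protein extract of human uterine leiomyoma. RNA of 3 wells per surface was pooled in equal amounts on the next day, and 1 array (Affymetrix Human Genome U133 Plus 2.0) was used for each pool. A protocol label names uncoated plates for both samples, while the titles and the methods give Myogel for the second. With 1 array per surface no difference has a replicate check, no p-value is given, and fewer cells of a kind and less RNA per cell cannot be told apart.

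The values are linear intensities with a floor of 1.00, and their median over 54613 probe sets was 59.7 on plastic and 52.5 on Myogel. Fold change (FC) was the Myogel value over the plastic value, and a gene with several probe sets was read from the brightest, by mean log2 intensity. Over all genes the log2 FC had a median of -0.07, and of 0.00 after quantile normalization, 0.01 after loess centring and 0.04 with the median log2 ratio of all probe sets set to 0, a shift of 0.11. The control probe sets for beta-actin gave a ratio of the 3′ to the 5′ end of 3.19 on plastic and 6.10 on Myogel, and those for GAPDH gave 1.10 and 1.22. The part of this difference in the values below was not tested. Of 10 markers of squamous epithelium 7 were measured, with values between 1051 and 18856 on plastic and between 1073 and 18224 on Myogel. The 12 markers of smooth muscle, the tissue of the extract, summed to 2579 on plastic and 2618 on Myogel, with 5.84 to 853 on plastic and the floor to 863 on Myogel. The brightest of them were MYLK (853 on plastic and 863 on Myogel), ACTA2 (703 and 756) and ACTG2 (240 and 272), while the muscle proteins MYH11 (198 and 174), desmin (DES, 43.0 and 63.5) and CNN1 (17.6 and the floor) were lower. The sums for other cell types were 905 and 821 for 7 fibroblast markers, 393 and 291 for 4 endothelial markers and 192 and 234 for 2 blood markers, and the part of any of these cells was not tested.

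The cytosolic ribosome translates messenger RNA in all cells. Its small subunit reads the codons, its large subunit joins the amino acids, and the stalk proteins of the large subunit recruit the factors that drive elongation. Nearly all of its proteins are needed in equal numbers, and their messenger RNAs are among the most abundant in growing cells. Most of these RNAs begin with a terminal oligopyrimidine (TOP) tract, a C followed by an unbroken run of C and T, through which growth signals that act on mTORC1 control their translation. Some members also have paralogs, genes for a similar protein that are used in few tissues or at low level.

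The annotated starts of the members are shown first, because the TOP tract is the feature that the family shares outside its names. RefSeq promoter sequences of the assembly GRCh38.p14 were at hand for 51 of the 59 genes, which lie on 17 chromosomes. A C followed by at least 4 bases that are C or T stood exactly at an annotated start in 35 of these 51 genes (68.6%), against 988 of 15843 protein-coding genes in the table (6.24%). Within 10 bases of a start it was found in 43 of the 51 (84.3%) and in 41.1% of protein-coding genes. The tracts at the start had a median length of 8 bases and ran from 5 to 19. The following stretches hold 10 bases before and 20 bases from the start, on the coding strand, with the TOP tract in capitals. They are the brightest members (RPS6, RPS23, RPS16), members with a high or a low FC (RPL27A, RPLP2, RPL29, RPS21), and those paralogs and partners that the table holds.
RPS6 (chr9:19380217-19380246, minus strand): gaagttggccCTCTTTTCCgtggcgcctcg
RPS23 (chr5:82278335-82278364, minus strand): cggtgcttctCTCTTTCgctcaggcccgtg
RPS16 (chr19:39435930-39435959, minus strand): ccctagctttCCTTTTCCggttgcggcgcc
RPL27A (chr11:8682782-8682811, plus strand): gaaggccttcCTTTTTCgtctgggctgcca
RPLP2 (chr11:809957-809986, plus strand): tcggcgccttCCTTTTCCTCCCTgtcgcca
RPL29 (chr3:51995876-51995905, minus strand): cagcccctttCTCTTCCggttctaggcgct
RPS21 (chr20:62387093-62387122, plus strand): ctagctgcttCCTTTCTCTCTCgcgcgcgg
RPL3 (chr22:39319604-39319633, minus strand): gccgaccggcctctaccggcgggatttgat
RPL22 (chr1:6199576-6199605, minus strand): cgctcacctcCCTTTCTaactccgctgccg
RPL22L1 (chr3:170870176-170870205, minus strand): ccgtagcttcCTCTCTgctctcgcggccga
RPS27 (chr1:153990752-153990781, plus strand): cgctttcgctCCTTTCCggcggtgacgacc
RPS27L (chr15:63157458-63157487, minus strand): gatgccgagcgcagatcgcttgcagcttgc
RPL39 (chrX:119791611-119791640, minus strand): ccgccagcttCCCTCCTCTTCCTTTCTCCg
RPL26L1 (first of 2 starts, chr5:172958719-172958748, plus strand): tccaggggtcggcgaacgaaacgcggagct
RPL7L1 (chr6:42879606-42879635, plus strand): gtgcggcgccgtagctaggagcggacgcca
RPL10L (chr14:46651762-46651791, minus strand): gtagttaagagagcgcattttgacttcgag

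The tract stood at the start in 34 of 46 members without the paralogs (73.9%), in 14 of 19 small subunit genes and 18 of 25 large subunit genes. Among the 5 paralogs in the table it was found in RPL22L1, and not at the listed starts of RPS27L, RPL26L1, RPL7L1 and RPL10L. Other motifs were counted on both strands of the promoter of 300 bases that reaches from 250 bases before the start to 50 bases after it. CCGGAAG, the core of sites for ETS factors, was found in 37.3% of the members and 16.5% of protein-coding genes. AAGATGGC, a core of YY1 sites, was found in 9.80% and 4.66%. GGGCGG, a core of SP1 sites, was found in 56.9% and 64.3%, TATAAA in 9.80% and 12.4%, and CACGTG in 7.84% and 10.9%. CCGGAAG was more frequent in lists described below, with 43.3% of mitochondrial ribosomal protein genes and 49.1% of ribosome assembly genes. Translation factors had it in 28.1% and other TOP genes in 16.7%. For AAGATGGC the shares in these lists, in the same order, were 29.9%, 8.77%, 12.5% and 16.7%. Neither motif is therefore particular to the members. A match of letters is a description and not a site of binding. The median log2 FC was -0.02 in the 35 members with a tract at the start (range -0.10 to 0.38) and -0.04 in the 16 without (range -0.19 to 0.03), and the ranges overlapped. Without the paralogs it was -0.02 in 34 and -0.03 in 12 members. Some genes counted as without a tract at the start, among them RPL32 and RPL3, have one within 10 bases of a start. The comparison therefore does not separate genes with the motif from genes that lack it.

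Most ribosomal protein genes had a probe set among the brightest of the array. Of the 100 brightest genes 41 were members, and RPS6, RPS23 and RPS16 ranked at 2, 3 and 4. Intensity depends on the probes as well as on the amount of RNA, so the order of these values is not an order of transcripts. Of the 59 members 49 had a geometric mean of the 2 arrays of 10000 or more, 6 lay between 1000 and 10000 and 4 lay below 1000. Among the 49 the plastic values ran from 10389 to 20546 with a median of 16334, and the Myogel values from 9869 to 21245 with a median of 16057. The highest and the lowest of them differed 2.03-fold in geometric mean. The value of RPS6 on Myogel was the highest of that array, and whether the scanner limits values of this size was not tested.

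On Myogel and on plastic these genes had almost the same values. With FC 1.2 or more, the lower threshold of the methods, 3 of 59 members were higher on Myogel and 0 were lower, against 18.1% of all genes higher and 30.8% lower. With FC 1.5 or more 1 member was higher and 0 were lower, against 9.71% and 17.5% of all genes, or 27.3% in either direction. That member, RPL3L, was listed at the floor on plastic. The other genes are mostly far dimmer, and dim probe sets differ more between the arrays. Among genes with a geometric mean of 10000 or more, 0 of the 49 members passed FC 1.2, and of 142 genes that are not members 0% were higher and 2.11% were lower. At FC 1.5 the paper, from its own analysis, reports a far smaller share of all genes than the 27.3% found here. The reason was not tested.

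On the values as deposited 42 of the 59 members (71.2%) were below 0 and 17 above, against 58.7% of all genes below 0. At 10000 or more 77.6% of the 49 members and 73.2% of the 142 other genes were below 0. The median log2 FC of the 59 members was -0.02 as deposited. Its sign depended on the scaling, since the median was 0.01 with quantile normalization (36 members above 0), 0.01 with loess (33 above 0) and 0.08 with the median log2 ratio set to 0 (55 above 0). The 49 bright members had a log2 FC between -0.11 and 0.09 with an SD of 0.041. The 142 other genes at 10000 or more had an SD of 0.094 and a range from -0.64 to 0.20. These others were dimmer, with a median of 12155 on plastic against 16334 for the 49, so the 2 spreads are not matched for intensity. A range of log2 FC that covers 95% of the 1000 probe sets of most similar intensity was taken for each member, and all 59 lay inside theirs. For the 49 bright members these were the same 1000 probe sets, the brightest of the array and members' own among them, with a range from -0.23 to 0.14. Only 66 member probe sets and 322 others were at 10000 or more, so most of the 1000 were dimmer than these members. Dimmer probe sets spread more, so a place inside this range says little about the 49.

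**Figure D1:**
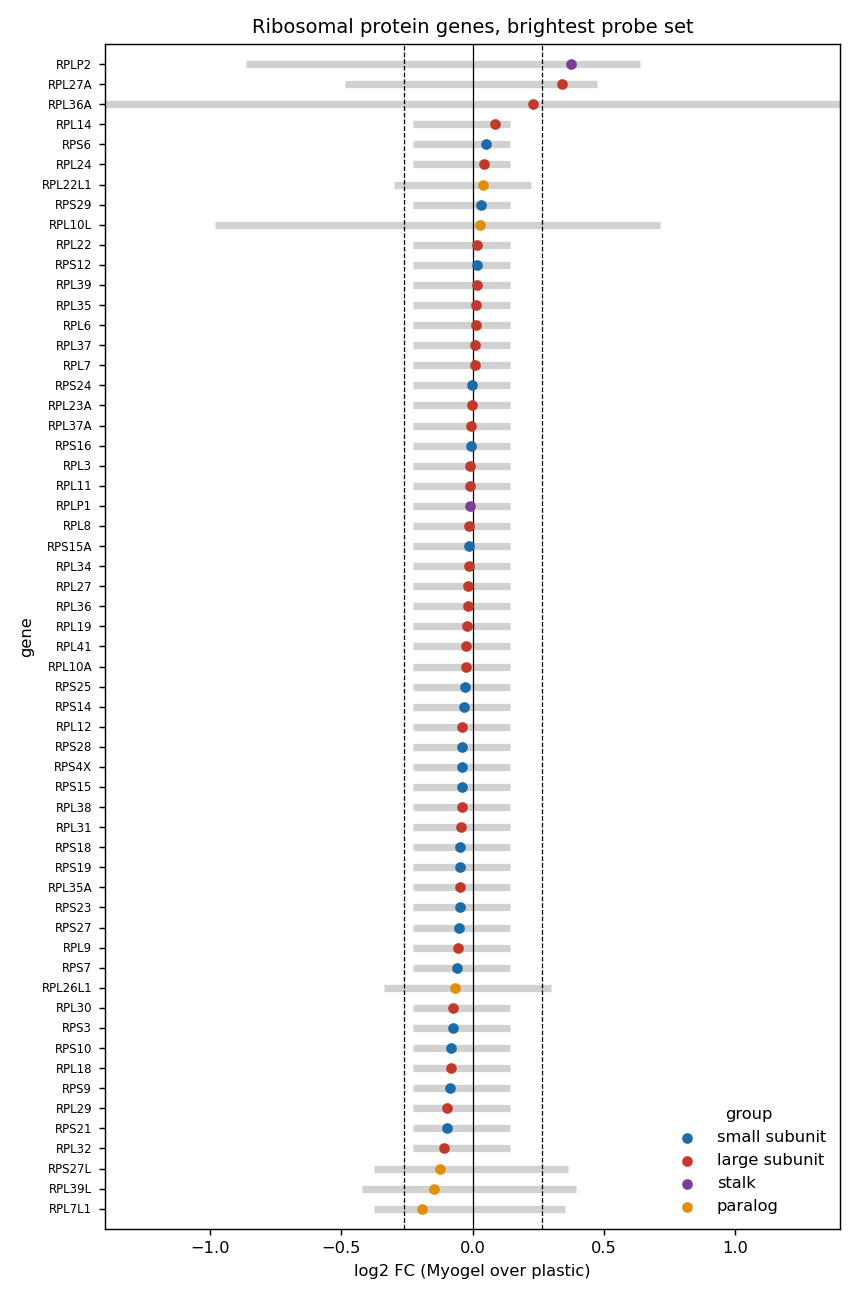
Log2 FC of Myogel over plastic (x axis) for 58 ribosomal protein genes (y axis, ordered by log2 FC), each from its brightest probe set on 1 array per surface; RPL3L, at the floor on plastic, is left out. Grey bars cover 95% of the 1000 probe sets of most similar intensity (cut at the axis for RPL36A) and dashed lines mark FC 1.2, which RPLP2 and RPL27A pass.

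The small subunit was represented by 20 genes, and each had a geometric mean above 10000. RPS6, the protein that S6 kinase phosphorylates when mTORC1 is active, had 20486 on plastic and 21245 on Myogel (log2 FC 0.05), the highest FC of the subunit. RPS23, a protein of the decoding centre, had 20546 on plastic and 19849 on Myogel. RPS16 had 19797 and 19704. RPS19, whose loss of a copy causes Diamond-Blackfan anaemia, had 16572 on plastic and 16037 on Myogel. The lowest FC of the subunit was that of RPS21, with 18795 on plastic and 17561 on Myogel (log2 FC -0.10). These differences are of the size found between bright probe sets of the same gene, described below. RPS3, which lies at the entry of the messenger RNA and is named here with its values already known, had 12385 on plastic and 11753 on Myogel. Of the 20 genes 17 were below 0 (85%), against 73.2% of the 142 genes at 10000 or more that are not members. The median log2 FC of the 20 was -0.04, but it was 0.00 with quantile normalization, -0.01 with loess and 0.07 with the median log2 ratio set to 0. Their sum fell by 2.24% from plastic to Myogel. The fall was 2.11% for the sum over all genes and 3.24% for the 142 others at 10000 or more.

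The large subunit without stalk and paralogs had 30 genes, 28 of them above 10000. RPL7 had the highest intensity, with 18858 on plastic and 18962 on Myogel. RPL11, which with RPL5 binds MDM2 when ribosome assembly is disturbed, had 14715 on plastic and 14617 on Myogel. RPL3, a protein near the peptidyl transferase centre, had 12300 and 12221. Among the bright genes RPL14 had the highest FC, with 12601 on plastic and 13380 on Myogel (log2 FC 0.09). RPL32 had the lowest, with 10656 on plastic and 9869 on Myogel (log2 FC -0.11), followed by RPL29 with 11009 and 10300 (log2 FC -0.10). All of these lay within FC 1.2. Of the 30 genes 20 were below 0 (66.7%), against 58.7% of all genes. Of the 28 above 10000 the share was 71.4%, against 73.2% of the 142 genes at 10000 or more that are not members. The median log2 FC of the 30 genes was -0.01, and it was 0.02 with quantile normalization or loess and 0.09 with the median log2 ratio set to 0. The difference between the subunits was not tested.

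The 3 members beyond FC 1.2, which include RPL3L, were all among the 10 with a geometric mean under 10000. RPL27A had 1219 on plastic and 1544 on Myogel, 1.27-fold higher, from its only probe set with 1 symbol, while the range for its intensity ran from -0.49 to 0.47 on the log2 scale. A pair of other probe sets list RPL27A with other symbols and were not used. RPLP2, a stalk protein, had 147 on plastic and 190 on Myogel, 1.30-fold higher, inside a range from -0.86 to 0.64. Its second probe set gave 20.5 on plastic and 6.00 on Myogel, so the direction turns with the probe set, and 1 more probe set that lists it with another symbol was not used. RPLP1, its partner in the stalk, had 17233 on plastic and 17096 on Myogel. RPL36A, from a single dim probe set, had 21.5 and 25.2. The values of RPLP2 and RPL36A lie far below those of most members and come from the probe sets that remain after those with several symbols were set aside.

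**Figure D2:**
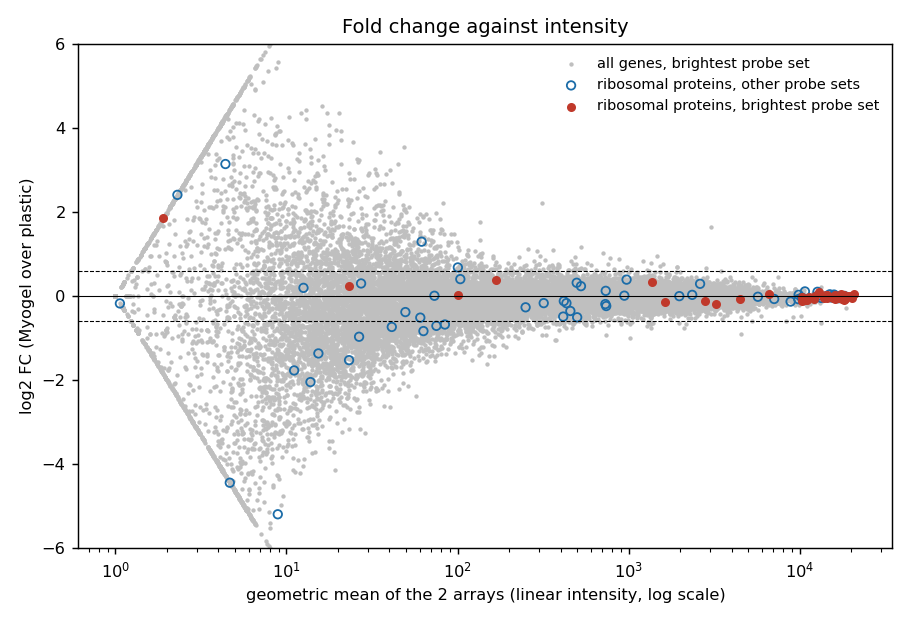
Geometric mean of both arrays (x axis, linear intensity on a log scale) and log2 FC, Myogel over plastic (y axis, from -6 to 6). Grey points are all genes by their brightest probe set, red points the 59 ribosomal protein genes and blue circles their 61 other probe sets, and dashed lines mark FC 1.5; the red points crowd at the right end near 0, while dim probe sets spread widely.

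Where both were measured, paralogs had lower intensities than the members they resemble, although intensities of different probe sets are not amounts of RNA. RPL22L1, the paralog of the RNA-binding protein RPL22, had 6510 on plastic and 6686 on Myogel (log2 FC 0.04), and RPL22 itself had 14307 and 14469 (log2 FC 0.02). RPL26L1 had 4605 on plastic and 4399 on Myogel, and its partner RPL26 was not analysed here. RPL7L1, a factor of large subunit assembly, had 3443 on plastic and 3011 on Myogel, the lowest FC of all members (log2 FC -0.19). RPL39L, known from the testis and from some tumours, had 1704 and 1539 (log2 FC -0.15), and RPL39 had 17816 and 18010 (log2 FC 0.02). RPS27L, a target of p53, had 2912 on plastic and 2670 on Myogel (log2 FC -0.13), and RPS27 had 16540 and 15963 (log2 FC -0.05).

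RPL7L1, RPL39L and RPS27L thus had the 3 lowest FCs of the 59 members, and the log2 FC of each was below that of its partner by 0.20, 0.16 and 0.07. They were all within FC 1.2, and within the ranges for their intensity, which ran from -0.37 to 0.35 for RPL7L1 and from -0.42 to 0.39 for RPL39L. The log2 FC of RPS27L went both ways among its 3 probe sets, with -0.13, 0.24 and -0.17. RPL10L, a copy of RPL10 without introns that is used in the testis, had 99.2 on plastic and 101 on Myogel. RPL3L, a protein of striated muscle, was listed at the floor of 1.00 on plastic and at 3.60 on Myogel, values at which no fold is given.

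**Figure D3:**
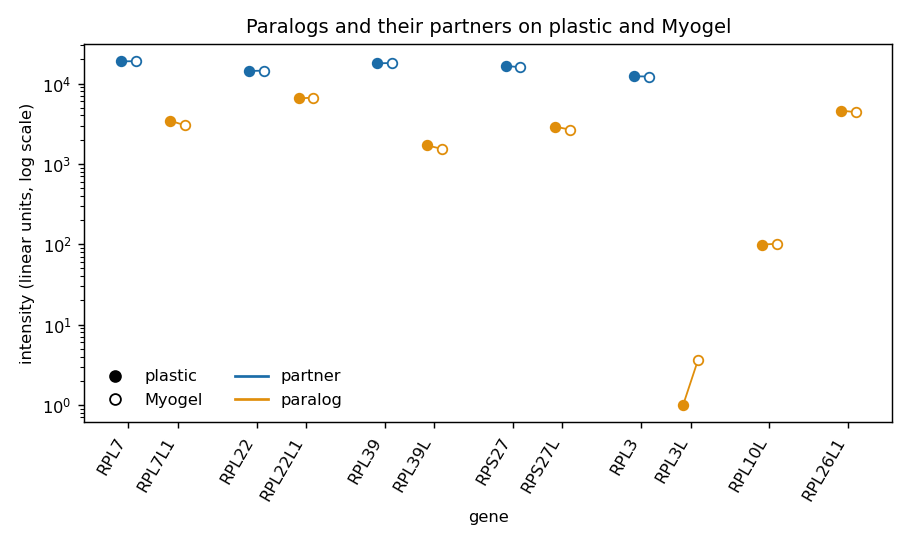
Intensity (y axis, linear units on a log scale) of 7 paralogs (orange) and 5 partners (blue), with filled points for plastic and open points for Myogel, 1 array each. Each paralog lies below its partner where both were measured, RPL22L1 is the brightest paralog at 6510 and 6686, and RPL3L lies at or near the floor; intensities of different probe sets are not amounts of RNA.

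The 34 genes with more than 1 probe set show how far these values depend on the probes. In 24 of them the brightest and the dimmest probe set differed 10-fold or more in intensity. Of the 61 probe sets that did not represent a gene 17 were at 10000 or more, 36 were below 1000 and 20 were below 100. RPS14, for example, had 16663 on plastic and 16269 on Myogel in its brightest probe set, while the others had 107 and 66.7, 72.3 and 50.7, and 21.8 and the floor. The RPS12 probe sets had 15960 on plastic and 16135 on Myogel, and the floor and 5.31.

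Where at least 2 probe sets of a gene were at 10000 or more, the log2 FCs differed by a median of 0.05 within a gene, over 30 probe sets of 13 genes. In 7 of the 13 they had both signs, and the largest difference was 0.19, close to the whole range of the bright members, in RPL18 (11096 on plastic and 10480 on Myogel, against 10312 and 11130). The SD of the log2 FC within these genes was 0.049, which is larger than the SD of 0.041 among the 49 bright members. The order of the bright members by FC is therefore not resolved by these arrays. RPL22 had 5 probe sets between 5656 and 14469, and their log2 FCs ran from -0.07 to 0.10.

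Dim probe sets of the same genes went far apart. Over the member probe sets the SD of the log2 FC was 0.044 at 10000 or more (66 probe sets), 0.15 from 1000 to 10000 (14), 0.34 from 100 to 1000 (18) and 1.91 below 100 (22). The probe sets of other genes gave SDs of 0.082, 0.20, 0.37 and 1.66 in the same steps. When probe sets below the median signal were left out, the largest differences within a gene were found for RPS29 (18012 on plastic and 18420 on Myogel, against 39.4 and 96.5), RPL37A, RPL18, RPL35A and RPS19, with 1.26, 1.03, 0.94, 0.89 and 0.73 on the log2 scale. RPL35A had 16334 on plastic and 15782 on Myogel in its brightest probe set, and 491 and 350, 90.2 and 119, and 53.2 and 32.0 in the 3 dimmest. With FC 1.5 or more in at least 1 probe set, 5 members were higher and 10 were lower, against 22.1% and 36.2% of all genes.

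**Figure D4:**
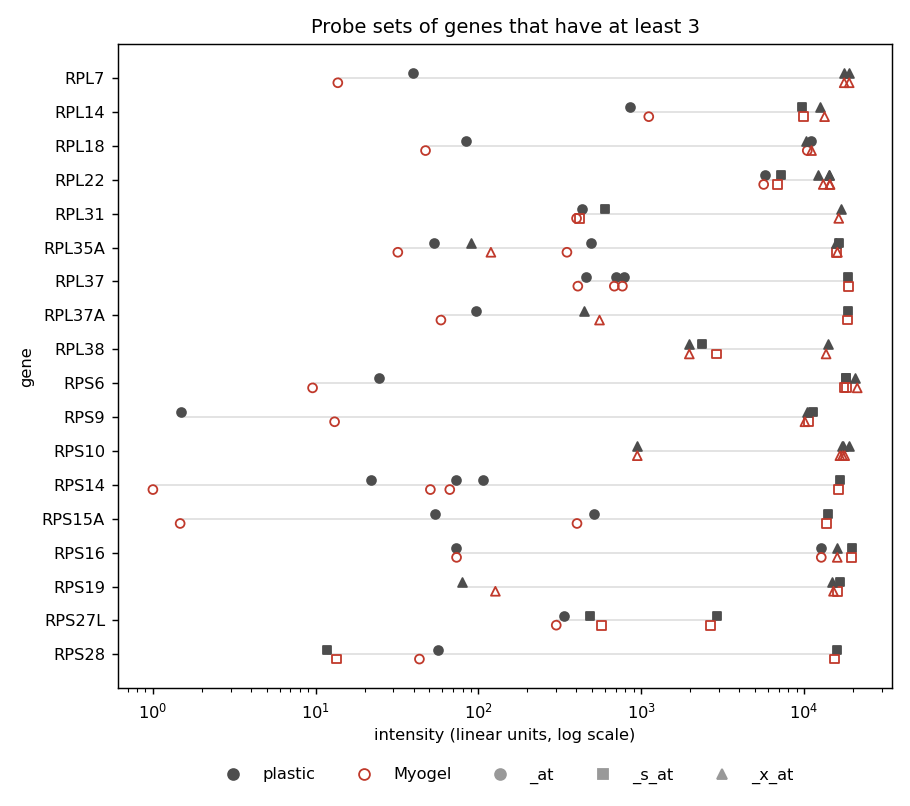
Intensity (x axis, linear units on a log scale) of each probe set of the members with at least 3 probe sets (y axis), with filled symbols for plastic, open red symbols for Myogel and shapes for the suffix of the probe set. Most genes have at least 1 probe set near or above 10000 in which both surfaces coincide, while RPS14, RPS15A and RPS9 also have probe sets under 100 whose values lie far apart.

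The suffix of a probe set tells whether its probes may detect several transcripts (_s_at) or may bind unrelated ones as well (_x_at), which matters here because the family has many processed pseudogenes. Of the 59 representative probe sets 29 had the suffix _s_at, 15 had _x_at and 15 had neither. The median log2 FC of the member probe sets was -0.03 for 38 with _s_at, 0.00 for 36 with _x_at and -0.08 for 46 with neither, of which many are dim. The 65 probe sets that list a gene of the family with other symbols, taken as a group after the data were seen, had a median log2 FC of -0.04. The 45 of them at 10000 or more had a median of -0.03 and an SD of 0.047, with 0 beyond FC 1.2. FAU and RPL36AL, ribosomal protein genes that the name rule leaves out, had 15830 on plastic and 15278 on Myogel, and 11080 and 10537.

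Other genes of translation were set beside the family, from lists written with earlier results of these data known. Of 13 further genes with known TOP messenger RNAs 0 passed FC 1.2, and the median log2 FC was -0.06. They include the elongation factors EEF1A1 (19730 on plastic, 19267 on Myogel) and EEF2 (13523 and 12561). On plastic the 13 had a median of 12545 and a lowest value of 5213, so not all reached 10000. Of the 142 genes at 10000 or more that are not members 0% were higher at FC 1.2 and 2.11% were lower. Beyond FC 1.2 there were 3 higher and 3 lower genes among 36 translation factors, against 18.1% and 30.8% of all genes. Among the higher was EIF4A2, at the floor on plastic. Among the lower was EIF3C, with 45.2 on plastic and 25.9 on Myogel, below the median signal of 53.8. The cap-binding protein EIF4E had 1968 on plastic and 2682 on Myogel, and EIF5A, which helps ribosomes past proline stretches, had 6170 and 3307. The median log2 FC of these factors was -0.03.

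The 75 genes for proteins of the mitochondrial ribosome had lower intensities than those of the cytosolic ribosome, with a median of 2694 on plastic and 2500 on Myogel. Beyond FC 1.2 there were 3 higher and 6 lower genes, and the median log2 FC was -0.08. MRPL12 had the lowest FC, with 2785 on plastic and 1942 on Myogel. Among 59 genes for the assembly of ribosomes, 5 higher and 8 lower ones passed FC 1.2, and the median log2 FC was -0.02. RRP9 had the lowest FC of these, with 119 on plastic and 57.5 on Myogel, and BRIX1 the highest, with 1024 and 1398. PES1, a factor of large subunit maturation, had 615 on plastic and 436 on Myogel, and RRS1 had 1868 and 2417. Of 20 genes for RNA polymerase I and its factors, which make ribosomal RNA, 4 lower and 0 higher ones passed FC 1.2, with a median log2 FC of -0.04, and 1 of the 20 passed after quantile normalization or loess. POLR1B had 1112 on plastic and 853 on Myogel. Of all genes 18.1% were higher and 30.8% lower at FC 1.2, or 49% in either direction. The share of 3 in 59 for the cytosolic ribosomal proteins and the shares in these lists were not tested against each other or against all genes, and the lists differ in intensity.

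**Figure D5:**
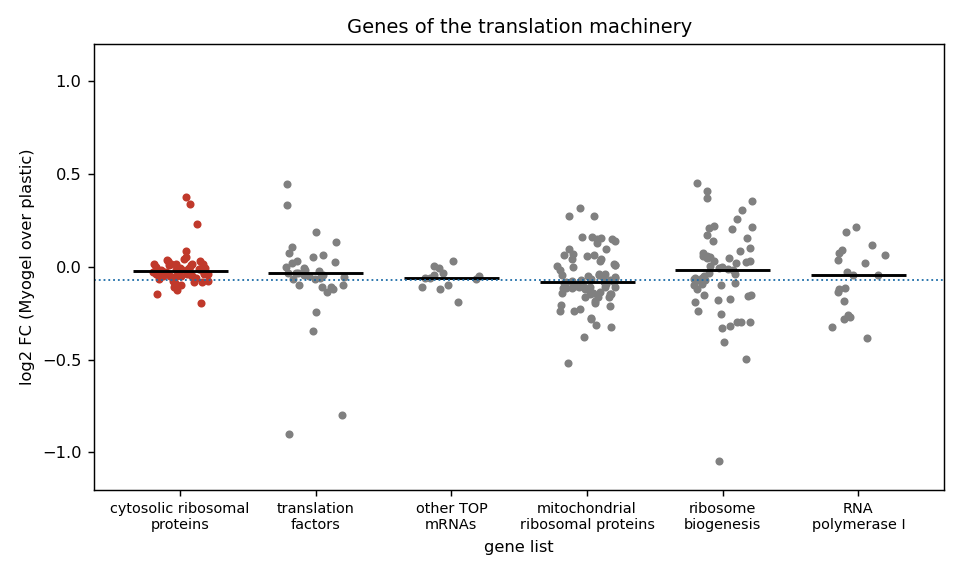
Genes of 6 lists (x axis) by their log2 FC, Myogel over plastic (y axis, -1.2 to 1.2), 1 point per gene from its brightest probe set, with black bars for list medians and a dotted blue line for the median of all genes (-0.07). The cytosolic ribosomal proteins and the other TOP genes crowd near 0; RPL3L and EIF4A2, both at the floor on plastic, lie beyond the axis.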

How the data were processed

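The authors pooled RNA of 3 wells per surface, hybridised 1 array (Affymetrix Human Genome U133 Plus 2.0) per pool and deposited linear intensity values. Their methods name dChip for the FC analysis, and for the values themselves the model and scaling were not given in the sources used here. Precision is limited by the 2 arrays. FC was computed without further scaling, with thresholds of 1.5 and 1.2 from the methods. Probe sets were named from the platform annotation, and their symbols were brought up to date by Entrez ID from RefSeq (GRCh38.p14), which changed no member. Of 54613 probe sets 41097 had 1 symbol, 1801 several, and 11715 are unnamed here. Members and lists were chosen with earlier results of these data known. Named by rule were the 6 highest and 6 lowest FCs, paralogs and partners, stalk proteins, RPL11, RPS19, RPL36AL and FAU, the 3 brightest and 3 dimmest members and the 5 whose probe sets differed most. Lists covered translation, TOP, mitochondrial ribosomes, ribosome assembly, RNA polymerase I and markers of squamous epithelium, smooth muscle, fibroblasts, endothelium and blood. The genes named from these lists were not set by the naming rule. Alternatives were quantile normalization, loess centring (span 0.3), a median log2 ratio of 0, offsets of 16 and 50, probe sets without _x_at, _s_at and _a_at, the mean over or any of the probe sets, a filter at the median signal, the annotated symbol, FC 2 and a difference of 100 linear units. Those chosen after seeing the data were the limit of 10000 and the probe sets with several symbols. The scripts used matplotlib 3.10.9, statsmodels 0.14.6, pandas 2.3.3 and numpy 2.4.6 in Python 3.11.15 and were tested on simulated data.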

Additional observations from a re-analysis of the deposited data

How the results depend on the processing

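Higher members with FC 1.2 or more, 3 as deposited, were 5 when all probe sets of a gene were averaged (the mean) and 0 among genes at 10000 or more. Lower members with FC 1.2 or more, 0 as deposited, were 8 with the mean and 9 of 36 without probe sets that carry a suffix (_x_at, _s_at or _a_at), where dim probe sets stand for many genes. Higher members with FC 1.5 or more, 1 as deposited, were 2 after loess centring, 2 without these suffixes, 4 with the mean, 5 with any probe set, and 0 with an offset of 16 or 50, the filter on low values or the difference of 100 linear units. Lower ones, 0 as deposited, were 6 without these suffixes, 4 with the mean and 10 with any probe set. Of all genes as deposited, 18.1% were higher and 30.8% lower at FC 1.2, and 9.71% and 17.5% at FC 1.5. With any probe set 22.1% and 36.2% of all genes passed FC 1.5. The shares of all genes with the mean or without these suffixes are not given here, so these counts have no background of their own. RPLP2 had a log2 FC of -1.77 without these suffixes and -0.70 with the mean. Of the other values for named genes under all settings, 57 moved by 0.1 or more on the log2 scale and 193 did not. Among the 57 were 29 with the median log2 ratio set to 0. With the mean, for example, RPS29 had 0.66 and RPL7 -0.51, against 0.03 and 0.01 as deposited. Setting the median log2 ratio to 0 adds the same 0.11 to every log2 FC. The median was then 0.085 for the members, 0.045 for the ribosomal proteins outside the name rule and 0.027 for mitochondrial ribosomal proteins. It was 0.072 for translation factors, 0.046 for other TOP genes, 0.090 for ribosome biogenesis and 0.063 for RNA polymerase I. Of the RNA polymerase I genes, those at FC 1.2 or more numbered 1 after quantile normalization, loess centring or an offset of 50, and 7 with the mean. Translation factors at FC 1.2 or more were 10 with the mean, and other TOP genes were 4 with the mean and 2 of 8 without these suffixes. Apart from that constant, the cause of these shifts was not tested. The other 120 values for counts and medians stayed within 1.5 times or 0.1 on the log2 scale. No paired analysis was possible because each surface has 1 array.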
